A study of Mus musculus with 6 samples.

Results

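The genes described here are 43 interferon-stimulated genes, chosen by symbol from a given list, of the 45777 genes in the deposited expression table. They comprise 35 antiviral genes of the type I interferon program and 8 immunity GTPases of the interferon-gamma type, namely Gbp2, Gbp3, Gbp6, Gbp7, Iigp1, Igtp, Irgm1 and Irgm2. All 43 had reads in all 6 samples, and the lowest count, 6 reads, belonged to Oas3 in STZ replicate 3, so no gene was lost to the filter on low counts.

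RNA sequencing was performed on astrocytes sorted by the red fluorescent protein tdTomato from the brains of male mice on a C57BL/6 background. All mice carried Aldh1l1-CreERT2 and tdTomato fl/fl, and the samples' genotype is given as WT. Tamoxifen (75 mg/kg for 5 days) switched the reporter on in cells that used the Aldh1l1 promoter, so the sort selects cells by that promoter rather than by all properties of astrocytes. At 8 weeks of age, 1 dose of the beta-cell toxin streptozotocin (STZ, 150 mg/kg) or its citrate buffer alone (vehicle) was injected, and STZ mice that became hyperglycemic were kept. Brains were collected 21 days after the injection. Each of the 3 samples per group pools cells from 3 mice. The comparison addresses how the astrocyte transcriptome differs between hyperglycemic and normoglycemic mice.

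Interferons are secreted signals of infection. Type I interferons bind the IFNAR receptor, and the kinases JAK1 and TYK2 then activate a complex that contains STAT2 and IRF9 and binds the interferon-stimulated response element in the promoters of antiviral genes. Interferon-gamma acts through its own receptor and through gamma activated sites, and is best known for inducing the GBP and IRG families of GTPases that attack the membranes around intracellular parasites and bacteria. In the brain, astrocytes, microglia and endothelial cells all carry interferon receptors and can show this response.

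Samples held between 52529048 and 58749115 reads in total. Levels are given as CPM, reads relative to the library total after TMM, a correction for library composition. The limit that 3 reads set was 0.0511 to 0.0571 CPM, for counting error only. The summed FPKM (fragments scaled to transcript length and sequencing depth, the authors' values) of 6 astrocyte markers was 3270 to 3850 in the vehicle samples and 3070 to 3420 in the STZ samples, so the defining genes of the labelled cell type were abundant throughout. The summed FPKM of 6 choroid plexus markers was higher still in every sample, at 4300 to 12900 in vehicle and 6940 to 11800 in STZ. In edgeR, 5 of the 6 astrocyte markers had a log2 fold change below 0, and 2 were lower in STZ at an unadjusted p under 0.05. In 3 of these 6 astrocyte markers, every STZ sample lay below every vehicle sample. Over the 22337 genes with a count in every sample, edgeR's quasi-likelihood test with Benjamini-Hochberg adjustment called 2 genes higher and 3 lower in STZ, where a called gene has an adjusted p below 0.05 and differs by more than 1.5-fold. DESeq2, the tool named in the study's methods, called 146 higher and 88 lower under the same thresholds.

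Promoters are shown for the 5 genes that had both an unadjusted p under 0.05 between the groups and a match to the interferon-stimulated response element, so that the shared element can be seen beside their values. RefSeq windows on GRCm38.p6, the assembly behind mm10, reach from 250 bases before to 50 bases after the annotated start and were at hand for 30 of the 43 genes. The 250 bases before the start are printed 5′ to 3′ on the strand of the gene. Capitals mark the core of the interferon-stimulated response element, which is GAAA followed after any 2 bases by GAAA on either strand, and in Igtp also the core of a gamma activated site, which is TTC followed after any 3 bases by GAA. Neither core contains the other, though matches can overlap. Isg15 lies on chr4:156200819-156201068 (minus strand), Ifit1 on chr19:34640639-34640888 (plus), Rsad2 on chr12:26456453-26456702 (minus), Irgm1 on chr11:48871421-48871670 (minus) and Igtp on chr11:58199306-58199555 (plus).
Isg15: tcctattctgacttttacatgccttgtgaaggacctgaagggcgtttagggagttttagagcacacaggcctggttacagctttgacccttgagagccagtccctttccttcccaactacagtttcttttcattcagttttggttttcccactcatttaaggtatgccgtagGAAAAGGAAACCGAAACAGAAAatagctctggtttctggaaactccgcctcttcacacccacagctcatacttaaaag
Ifit1: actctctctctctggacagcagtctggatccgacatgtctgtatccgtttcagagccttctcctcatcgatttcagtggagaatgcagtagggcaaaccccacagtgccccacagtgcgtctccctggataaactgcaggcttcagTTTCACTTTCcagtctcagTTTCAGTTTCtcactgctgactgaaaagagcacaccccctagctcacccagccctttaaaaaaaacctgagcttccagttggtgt
Rsad2: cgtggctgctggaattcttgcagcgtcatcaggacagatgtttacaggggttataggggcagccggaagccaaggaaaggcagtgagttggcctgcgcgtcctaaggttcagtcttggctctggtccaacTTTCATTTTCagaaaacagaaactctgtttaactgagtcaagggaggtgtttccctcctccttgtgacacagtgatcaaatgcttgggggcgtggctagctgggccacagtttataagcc
Irgm1: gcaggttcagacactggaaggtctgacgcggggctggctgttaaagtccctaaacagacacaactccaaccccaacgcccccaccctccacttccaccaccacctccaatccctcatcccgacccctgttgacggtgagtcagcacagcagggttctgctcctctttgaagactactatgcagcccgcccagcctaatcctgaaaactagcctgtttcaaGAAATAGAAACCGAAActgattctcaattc
Igtp: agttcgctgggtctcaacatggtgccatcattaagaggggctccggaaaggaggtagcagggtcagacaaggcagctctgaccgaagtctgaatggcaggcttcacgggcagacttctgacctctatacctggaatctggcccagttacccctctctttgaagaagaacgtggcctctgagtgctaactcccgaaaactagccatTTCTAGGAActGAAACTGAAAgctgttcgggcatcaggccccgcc

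Positions are counted from the annotated start of the window as 0. Bases 10 to 40 after the start lay in a transcript of the GENCODE annotation in 26 of 34 windows, so some starts were left unmatched. The windows of Ifit3 and Ifit3b begin inside the annotated gene. Isg15, whose product is a ubiquitin-like modifier, held 3 overlapping copies of the response element core in a single run that began at -78. Ifit1 held 2 separate copies on the opposite strand, beginning at -104 and -85, and Rsad2 held 1, beginning at -120. The window of Ifi44 held no match. In Irgm1, 2 overlapping copies began at -30 and -24, and in Igtp 1 copy began at -34, just after a gamma activated site core that began at -45. The same order of both cores occurred in Irgm2, at -75 and -64. In Gbp7, Oas1a, Bst2 and Eif2ak2, the other genes with both cores, the gamma activated site core also began first.

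The response element core occurred in 18 of the 30 genes with a window (60%), against 3.99% of the 27025 genes in the promoter table. All 6 GTPases with a window held it (100%), and 12 of 24 antiviral genes did (50%). The gamma activated site core occurred in 9 of 30 genes (30%), against 9.55% of all genes, and both cores occurred together in 6 of 30 genes (20%), against 0.614% of all genes. Of 27 response element matches, 24 began before the start, the farthest of them at -222. The genes with the core had a median log2 fold change of 0.14 (STZ over vehicle, range -0.95 to 1.51, n = 18), and the genes with a window but no match had a median of 0.25 (range 0.03 to 1.53, n = 12). A match describes these letters only and is not evidence of binding. No window was at hand for Mx1, Mx2, Oas1b, Oas2, Usp18, Ifi27, Ifi27l2a, Dhx58, Rtp4, Parp9, Parp14, Gbp6 and Iigp1.

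**Figure D1:**
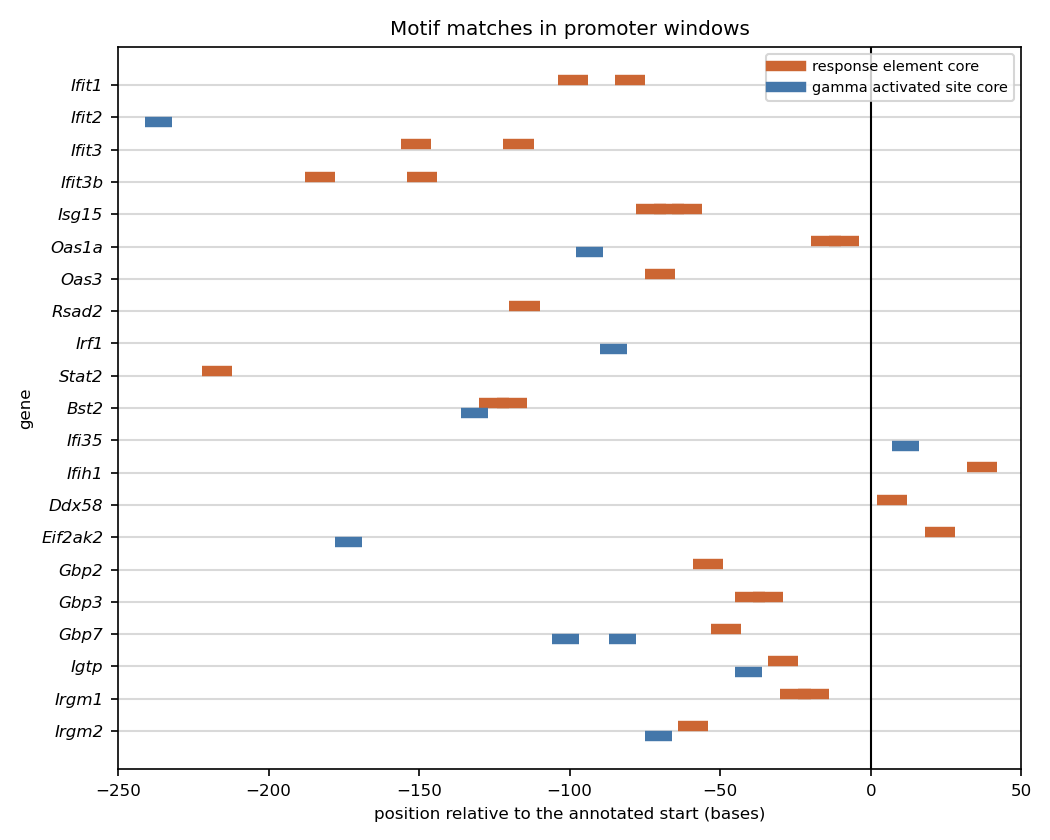
Positions of motif matches in the promoter windows of the genes with at least 1 match, in bases relative to the annotated start (vertical line); orange bars are response element cores and blue bars gamma activated site cores. The response element matches of the 6 GTPases begin between -64 and -24, and those of the antiviral genes are spread from -222 (Stat2) to 32 (Ifih1).

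Across the 43 genes, the level was higher in STZ for most, and no single gene passed the threshold in edgeR. The log2 fold change of STZ over vehicle was above 0 for 35 of 43 genes (81.4%), against 51.9% of all genes tested. The median was 0.24 for the 35 antiviral genes and 0.27 for the 8 GTPases, against 0.01 over all genes. All 8 GTPases and 27 of the 35 antiviral genes lay above 0. edgeR called 0 of 43 genes in either direction (0.00895% of all genes were called higher and 0.0134% lower), and the lowest adjusted p was 0.282, for Rtp4. At an unadjusted p under 0.05, 9 of the 43 genes were higher in STZ (20.9%, against 5.63% of all genes) and 0 were lower (against 5.65%). The 9 were Isg15, Ifit1, Oas1b, Rsad2, Ifi44 and Rtp4 among the antiviral genes and Iigp1, Igtp and Irgm1 among the GTPases. DESeq2 called 5 of the 43 genes higher (11.6%, against 0.654% of all genes), namely Isg15, Ifit1, Rsad2, Ifi44 and Iigp1, and 0 lower (against 0.394%), with 11 higher and 1 lower at an unadjusted p under 0.05 (against 5.53% and 4.8% of all genes). These genes share regulators, so their counts are not independent of each other.

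**Figure D2:**
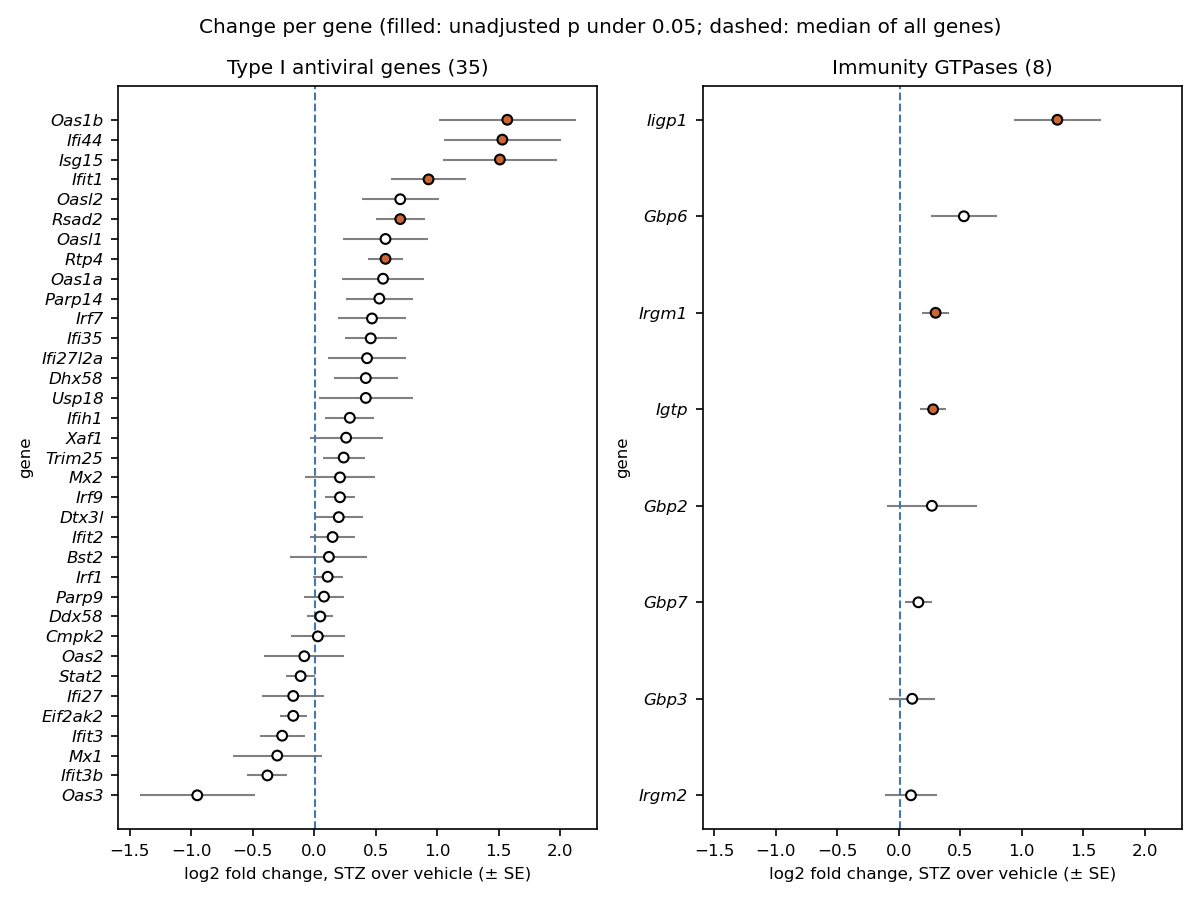
Log2 fold change of STZ over vehicle for each gene with its standard error (bars, n = 3 samples per group), in the 35 antiviral genes (left) and the 8 GTPases (right); filled points have an unadjusted p under 0.05 and the dashed line is the median of all genes, 0.01. The antiviral genes span -0.95 (Oas3) to 1.57 (Oas1b) and the GTPases 0.10 (Irgm2) to 1.29 (Iigp1), all GTPases above 0.

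The values of single samples differed within the STZ group. STZ replicates 1 and 2 both lay above every vehicle sample in 26 of the 43 genes (60.5%, against 17.2% of all genes). STZ replicate 3 was the lowest STZ sample in 41 of 43 genes (95.3%, against 37.8% of all genes), all except Mx1 and Ifi27, and it lay within the vehicle range in 25 genes (58.1%, against 44.9%), above it in 9 and below it in 9. The mean log2 CPM of the antiviral genes was 2.22, 2.49 and 2.62 in vehicle replicates 1 to 3 and 2.88, 2.98 and 2.38 in STZ replicates 1 to 3. For the GTPases it was 2.78, 3.03 and 3.19 in vehicle and 3.49, 3.58 and 3.07 in STZ. In both classes STZ replicates 1 and 2 were thus the highest samples, STZ replicate 3 lay among the vehicle samples, and vehicle replicate 1 was the lowest. Vehicle replicate 1 was also the lowest of all 6 samples in 26 of the 43 genes (60.5%, against 25.6% of all genes).

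Every sample was left out in turn, and the fits without these samples are given here because of the values just described. STZ replicate 3 was the lowest STZ sample in most genes, so larger differences without it follow from that choice and are no separate support. Without STZ replicate 3, the genes that were higher in STZ at an unadjusted p under 0.05 numbered 16 (against 6.83% of all genes) and 0 were lower (against 5.6%), the medians were 0.38 for the antiviral genes and 0.33 for the GTPases, and edgeR still called 0, with a lowest adjusted p of 0.21. Without vehicle replicate 1, 6 genes were higher and 1 was lower at an unadjusted p under 0.05 (against 4.5% and 5.85% of all genes), the medians were 0.25 and 0.19, and edgeR called 0. Each sample is a pool, so whether STZ replicate 3 differed in all of its 3 mice or in some of them cannot be told apart.

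**Figure D3:**
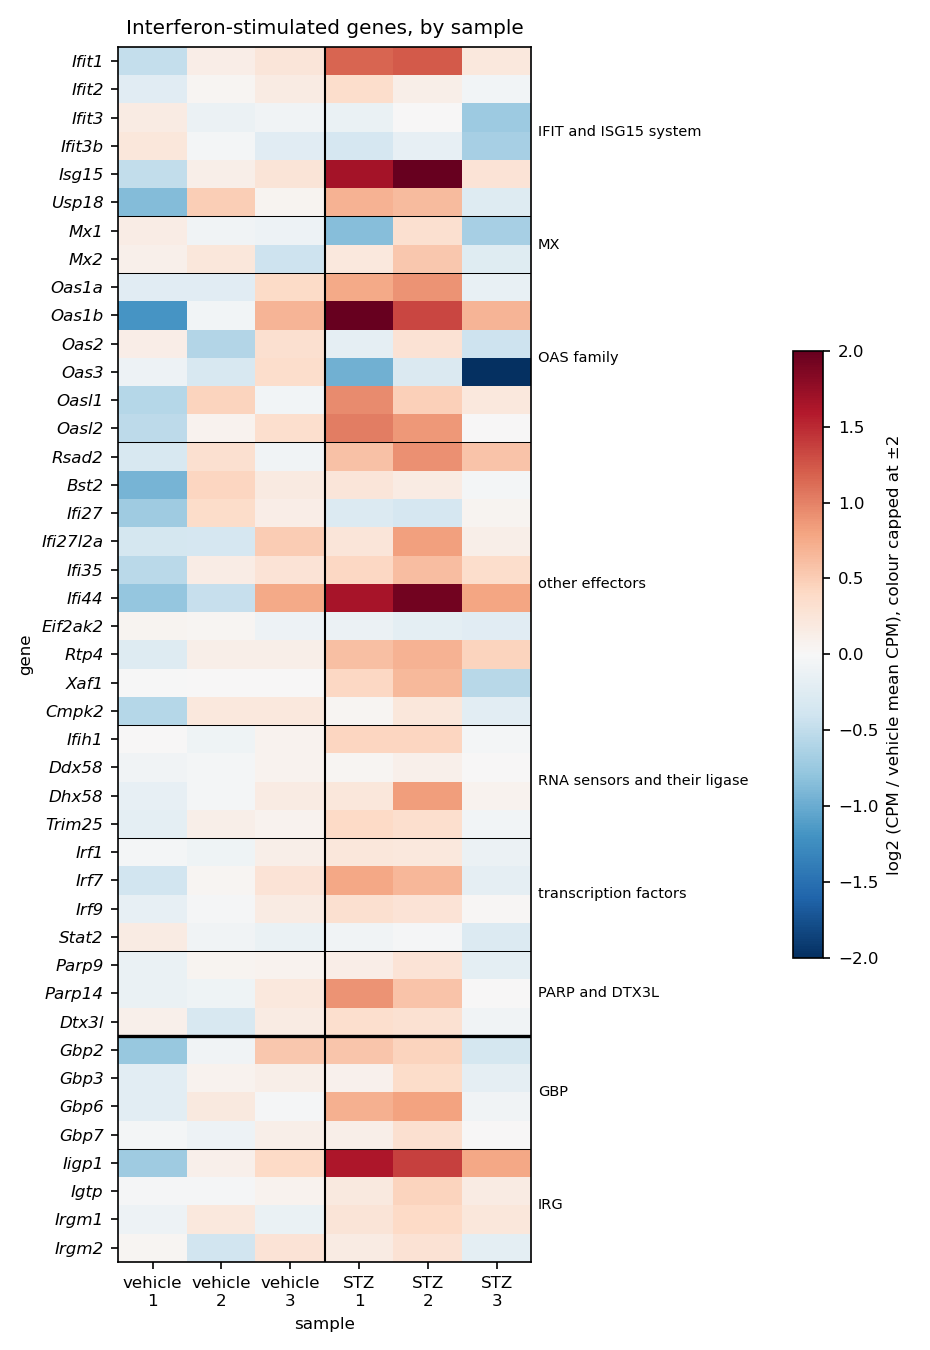
Level of each gene in each of the 6 samples, as log2 of CPM over the mean CPM of the vehicle samples (colour, capped at ±2), ordered by the gene's role, with the GTPases below the thick line. The columns of STZ replicates 1 and 2 are mostly red, STZ replicate 3 resembles the vehicle columns, and the bluest cell of that column is Oas3, at -2.24, followed by Ifit3 at -0.73.

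None of the 4 genes for sensors of viral RNA and their ligase had an unadjusted p under 0.05, although STZ replicates 1 and 2 lay above every vehicle sample in 3 of them. Ddx58 encodes RIG-I and was the most abundant of them per transcript length (mean 2.53 FPKM). It measured 12.5, 12.8 and 13.8 CPM in vehicle replicates 1 to 3 and 13.5, 14.0 and 13.2 CPM in STZ replicates 1 to 3. The ranges overlapped, and the log2 fold change was 0.05 ± 0.106 (SE). Ifih1, encoding the sensor MDA5, Dhx58, encoding the regulator LGP2, and Trim25, the ubiquitin ligase of RIG-I, had log2 fold changes of 0.29, 0.42 and 0.24.

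The transcription factors of the pathway did not pass the test either. Irf9, the DNA-binding partner of STAT2, was the most abundant of the 4 (mean 10 FPKM). It measured 21.8, 23.9 and 27.2 CPM in vehicle and 30.4, 29.3 and 24.6 CPM in STZ, again with STZ replicate 3 inside the vehicle range, and its log2 fold change was 0.21 ± 0.119. Irf7, which amplifies type I interferon production and is itself induced by interferon, had a log2 fold change of 0.47 ± 0.28. Irf1, an early target of interferon-gamma, had 0.11, and Stat2 had -0.11.

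The ISG15 and IFIT genes differed among themselves in direction. Isg15 (NCBI gene 100038882, chr4:156199424-156200818) measured 0.671, 1.02 and 1.13 CPM in vehicle replicates 1 to 3 and 2.98, 3.95 and 1.14 CPM in STZ replicates 1 to 3. STZ replicates 1 and 2 stood well above the vehicle samples, and STZ replicate 3 exceeded the highest vehicle sample only narrowly. The log2 fold change was 1.51 ± 0.464, with an adjusted p of 0.329 by edgeR's quasi-likelihood test and 0.0426 by DESeq2 (0.0426 to 0.656 over 14 alternatives). Isg15 overlaps Gm46878 in the annotation, and its counts are uncertain to that extent. Usp18, the protease that removes ISG15 and damps IFNAR signalling, had a log2 fold change of 0.42 ± 0.38.

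Ifit1 (NCBI gene 15957, chr19:34640889-34650009) encodes a protein that binds viral RNA lacking the host's cap methylation. It measured 4.03, 6.11 and 6.62 CPM in vehicle and 12.5, 13 and 6.48 CPM in STZ, so the groups overlapped through STZ replicate 3 alone. Its log2 fold change was 0.93 ± 0.307, with an adjusted p of 0.350 by edgeR and 0.0497 by DESeq2 (0.0497 to 0.665 over 14 alternatives). Ifit1 shares its position with Ifit1bl1, and its counts are uncertain to that extent.

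Ifit3 and Ifit3b, the most abundant of the IFIT genes (mean 17.0 and 11.1 FPKM), did not share this direction. Ifit3 measured 43.8, 36.0 and 37.1 CPM in vehicle and 35.3, 39.1 and 23.5 CPM in STZ, with a log2 fold change of -0.26 ± 0.184. Ifit3b measured 33.4, 27.7 and 24.3 CPM in vehicle and 22.5, 25.5 and 17.9 CPM in STZ, with a log2 fold change of -0.38 ± 0.163 and an unadjusted p of 0.0517 in edgeR. The groups overlapped in both genes, and STZ replicate 3 was the lowest of the 6 samples in each. Their coding sequences were identical at 1198 of 1209 bases (99.1%), with an unbroken identical run of 329 bases, so the split of reads between them is uncertain. Ifit2, which was only 59.1% identical to Ifit1 in coding bases, had a log2 fold change of 0.15.

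**Figure D4:**
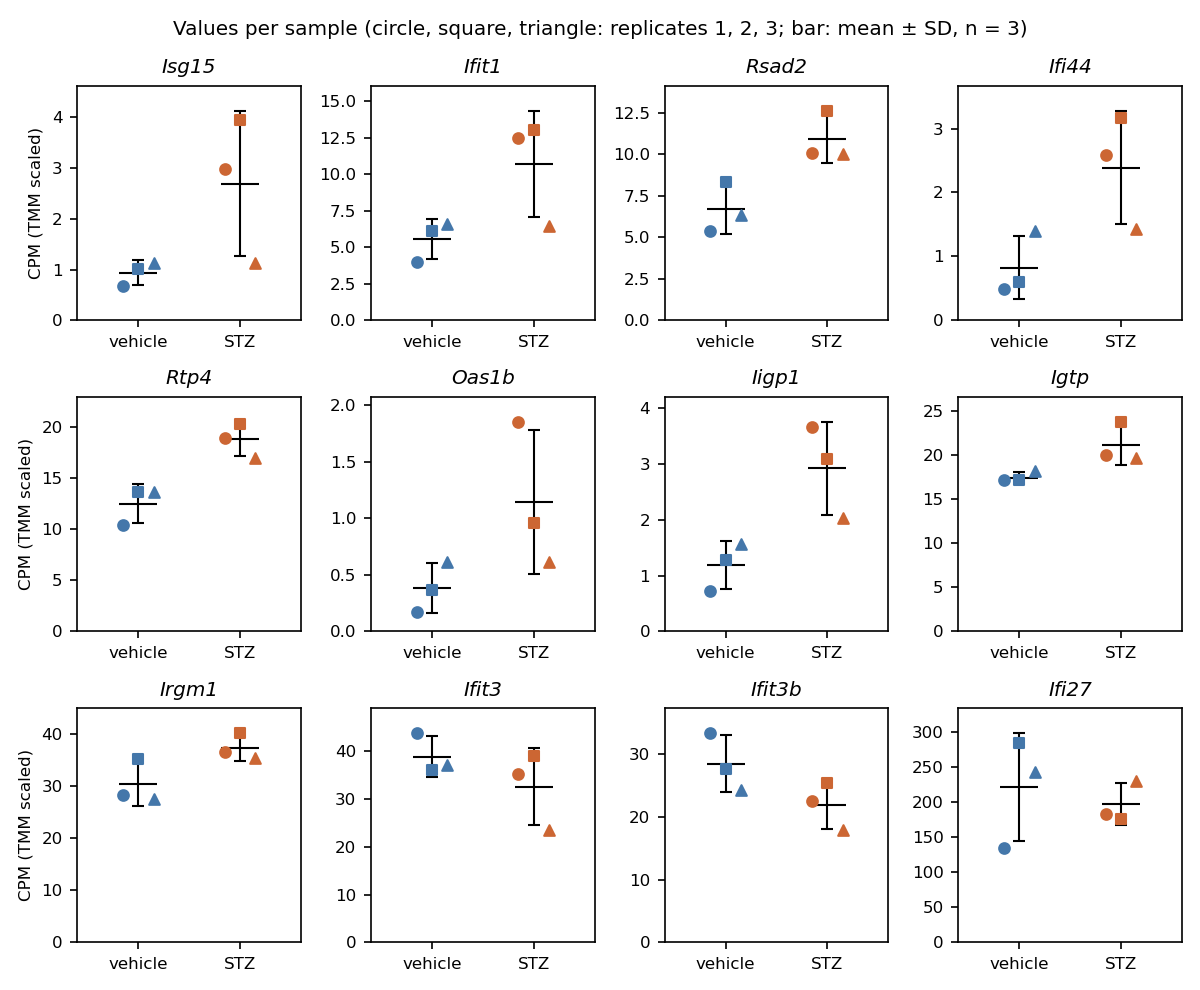
TMM-scaled CPM of 12 genes in each sample (circles, squares and triangles for replicates 1, 2 and 3; bars for the mean ± SD, n = 3 per group; all axes start at 0). In Isg15, Ifi44, Iigp1 and Oas1b, STZ replicate 3 lies just above the vehicle samples, at 1.14, 1.43, 2.03 and 0.613 CPM, and in Ifit1 it lies among them at 6.48 CPM.

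The OAS family is named for enzymes that make the second messenger of RNase L when they meet double-stranded RNA. Its 6 genes here, not all of them intact enzymes, had a median log2 fold change of 0.57. Oas1b measured 0.168, 0.366 and 0.611 CPM in vehicle and 1.85, 0.962 and 0.613 CPM in STZ. The groups separated by a margin of 36 against 35 reads between STZ replicate 3 and vehicle replicate 3, and the log2 fold change was 1.57 ± 0.556 with an adjusted p of 0.381 by edgeR and 0.174 by DESeq2. Oas1b is listed as a transcribed pseudogene in the table, as are Mx1 and Mx2, and C57BL/6 mice are known to carry defective alleles of these genes. Its coding sequence was 77.3% identical to that of Oas1a, with a longest identical run of 62 bases.

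Oasl2, an OAS-like protein that enhances RIG-I signalling, was the most abundant of the family (mean 2.31 FPKM). It measured 4.07, 6.13 and 7.35 CPM in vehicle and 11.9, 10.7 and 5.91 CPM in STZ, and the groups overlapped through STZ replicate 3. The log2 fold change was 0.70 ± 0.314, with an adjusted p of 0.462 by edgeR. Oas1a and Oasl1 had log2 fold changes of 0.56 and 0.58, while Oas2 had -0.08 and Oas3 had -0.95 ± 0.466 on counts of 6 to 35 reads.

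The MX genes, dynamin-like GTPases that block viral nucleocapsids, did not have an unadjusted p under 0.05. Mx2 was the more abundant per length (mean 0.905 FPKM) and measured 2.33, 2.54 and 1.62 CPM in vehicle and 2.51, 3.14 and 1.84 CPM in STZ. The groups overlapped, and the log2 fold changes were 0.21 ± 0.286 for Mx2 and -0.30 ± 0.363 for Mx1.

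Among the other antiviral effectors, Rsad2 and Rtp4 showed the most even separation of the groups. Rsad2 (NCBI gene 58185, chr12:26442743-26456452) encodes viperin, an enzyme that makes a chain-terminating nucleotide. It measured 5.37, 8.36 and 6.37 CPM in vehicle and 10.1, 12.6 and 10 CPM in STZ. All STZ samples lay above all vehicle samples, with a log2 fold change of 0.70 ± 0.200 and an adjusted p of 0.307 by edgeR and 0.0408 by DESeq2 (0.0408 to 0.650 over 14 alternatives). Cmpk2, a mitochondrial nucleotide kinase gene 12664 bases away on the same chromosome, had a log2 fold change of 0.03 ± 0.222, so the neighbours differed in size of change.

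Rtp4, a transmembrane protein that restricts flaviviruses, had the lowest adjusted p of the 43 genes. It measured 10.4, 13.6 and 13.6 CPM in vehicle and 18.9, 20.3 and 17.0 CPM in STZ, with no overlap. The log2 fold change was 0.58 ± 0.142, with an adjusted p of 0.282 by edgeR and 0.0213 by DESeq2 (0.0213 to 0.629 over 14 alternatives), and the fold fell just under the threshold of 1.5. Rtp4 overlaps Masp1 in the annotation.

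Ifi44, an interferon-induced, microtubule-associated protein, was a low-level gene with a large difference. It measured 0.485, 0.597 and 1.40 CPM in vehicle and 2.59, 3.16 and 1.43 CPM in STZ. Vehicle replicate 3 and STZ replicate 3 were nearly equal, at 80 and 84 reads, and the other samples were far apart. Its log2 fold change was 1.53 ± 0.473, with an adjusted p of 0.335 by edgeR and 0.0477 by DESeq2 (0.0477 to 0.656 over 14 alternatives). Ifi35, which binds the related protein NMI, was also without overlap, at 7.91 to 13.9 CPM in vehicle and 14.7 to 17.7 CPM in STZ, with a log2 fold change of 0.46 ± 0.212 and an adjusted p of 0.469 by edgeR.

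Ifi27, a small mitochondrial and nuclear membrane protein, was the most abundant of the 43 genes (mean 192 FPKM) and followed another order of samples. It measured 135, 284 and 243 CPM in vehicle and 183, 176 and 230 CPM in STZ, and the groups overlapped, with a log2 fold change of -0.17 ± 0.252. The summed FPKM of 6 choroid plexus markers had a similar order, at 4300, 12100 and 12900 in vehicle and 8520, 6940 and 11800 in STZ, and its part in the Ifi27 level was not tested. Ifi27 lies within Ifi27l2a in the annotation, and no source says whether reads were assigned by strand, so their reads may be mixed. Eif2ak2, encoding the RNA-activated kinase PKR, was the one gene whose STZ samples all lay below the vehicle samples, at 11.6 to 12.6 CPM against 12.7 to 14.1 CPM, with a log2 fold change of -0.17 ± 0.111. Bst2 (tetherin, which holds budding virions), Xaf1 (a regulator of apoptosis) and Ifi27l2a had log2 fold changes of 0.12, 0.26 and 0.43.

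The PARP9 and DTX3L complex, which modifies histones, and PARP14, another ADP-ribosyltransferase, were highest in STZ replicates 1 and 2. Parp9 was the most abundant (mean 2.66 FPKM) and measured 8.32, 9.40 and 9.51 CPM in vehicle and 9.94, 11.0 and 7.91 CPM in STZ, with overlap and a log2 fold change of 0.08 ± 0.163. Dtx3l, which overlaps Parp9, had 0.20, and Parp14 had 0.53 ± 0.275. The unadjusted p was not under 0.05 in any of these 3.

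The IRG GTPases held the 3 immunity GTPases with an unadjusted p under 0.05, and in each of them the groups did not overlap. Over all 43 genes, 9 had every STZ sample above every vehicle sample (20.9%, against 8.64% of all genes) and 1 had every STZ sample below (against 9.85%). The 9 were Isg15, Oas1b, Rsad2, Ifi35, Ifi44, Rtp4, Iigp1, Igtp and Irgm1. Iigp1, which loads onto the vacuole of Toxoplasma, measured 0.727, 1.27 and 1.57 CPM in vehicle and 3.66, 3.08 and 2.03 CPM in STZ. The lowest STZ sample was STZ replicate 3, at 119 reads against 90 in the highest vehicle sample. The log2 fold change was 1.29 ± 0.355, with an adjusted p of 0.302 by edgeR and 0.0269 by DESeq2 (0.0269 to 0.629 over 14 alternatives).

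Irgm1 and Igtp were far more abundant and differed far less. Irgm1 (NCBI gene 15944, chr11:48865245-48871420), a regulator that keeps effector GTPases off the cell's own membranes, had a mean of 14.9 FPKM, the highest of the 8 GTPases. It measured 28.3, 35.1 and 27.5 CPM in vehicle and 36.4, 40.1 and 35.3 CPM in STZ, with a log2 fold change of 0.30 ± 0.113 and an adjusted p of 0.402 by edgeR. The margin between the groups was narrow, at 35.1 against 35.3 CPM. Igtp (NCBI gene 16145, chr11:58199556-58207592), also called Irgm3 and a regulator of the same kind, measured 17.1, 17.1 and 18.2 CPM in vehicle and 20.0, 23.7 and 19.6 CPM in STZ, with a log2 fold change of 0.28 ± 0.107 and an adjusted p of 0.407 by edgeR. Irgm2, the third regulator, had a log2 fold change of 0.10 ± 0.210. Its coding sequence was 69.7% identical to that of Igtp and 65.3% to that of Irgm1, but it shared an identical run of 141 bases with Igtp.

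The GBP genes, large GTPases that coat bacteria and vacuoles, did not have an unadjusted p under 0.05. Gbp7 was the most abundant (mean 3.95 FPKM) and measured 21.7, 20.8 and 24.1 CPM in vehicle and 24.2, 27.8 and 22.4 CPM in STZ. STZ replicate 3 lay inside the vehicle range, and the log2 fold change was 0.16 ± 0.111. Gbp6 had 0.53 ± 0.268, Gbp2 had 0.27 ± 0.364 and Gbp3 had 0.11 ± 0.187. Gbp3 and Gbp7 were 78.1% identical in coding bases, with an identical run of 123 bases, so some of their reads may be shared.

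The 43 genes spanned a wide range of levels per transcript length, from 0.0703 FPKM (Oas3) to 192 FPKM (Ifi27), with a median of 2.39 FPKM. Of them, 11 were under 1 FPKM and 5 over 10 FPKM, namely Ifi27, Ifit3, Irgm1, Bst2 and Ifit3b. These 5 abundant genes had log2 fold changes between -0.38 and 0.30. Of the 9 genes with an unadjusted p under 0.05, 6 had a mean under 3 FPKM. The median of 2.39 FPKM shows that most of the 43 genes were under 3 FPKM too, so this is not particular to the 9.

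Reads of interferons themselves were almost absent. Of 10 interferon genes, 5 (Ifna1, Ifna2, Ifna4, Ifne and Ifnl2) were at 0 in all 6 samples, and none had reads in every sample, so none was tested. Ifng had 0, 2 and 6 reads in the vehicle samples and 4, 0 and 3 in the STZ samples, and Ifnb1 had 1 read in 1 STZ sample. At this depth a difference in interferon transcripts was not detectable. The receptors and their kinases were all measured (9 of 9 genes, median log2 fold change 0.05), and 0 of 9 had an unadjusted p under 0.05 in edgeR, with 0 called by edgeR and 0 by DESeq2. Ifngr1, a chain of the interferon-gamma receptor, was the most abundant of them at 55.9 FPKM, and Ifnar1 and Ifnar2, the chains of the type I receptor, had log2 fold changes of -0.09 ± 0.0838 and 0.13 ± 0.0805.

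Further genes of the pathway were counted from lists that were written with earlier results of these data known. Within each list, genes are named for their unadjusted p or their level. In none of these lists did edgeR or DESeq2 call a gene. Of 8 further transcription factors (median log2 fold change 0.25), 3 had an unadjusted p under 0.05 in edgeR. All 3 were higher in STZ (against 5.63% of all genes). These were Stat3, the mediator of interleukin-6 signals (0.25 ± 0.0636), Irf2, which competes with IRF1 for the same sites (0.33 ± 0.104), and Nlrc5, the activator of MHC class I genes (0.76 ± 0.237). The most abundant factor, Irf3, had 0.14. Of 10 measured genes that sense nucleic acids upstream of interferon, 0 had an unadjusted p under 0.05 (median 0.11), the most abundant being the RNA receptor gene Tlr3 at 28.7 FPKM. Of 9 negative regulators, which include Usp18, already described above, 0 were higher at that level in DESeq2. In edgeR 1 was higher (against 5.63% of all genes). This was the SUMO ligase gene Pias1 (0.19 ± 0.065), which was also the most abundant at 25.3 FPKM.

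Among 47 other interferon-stimulated genes, the median log2 fold change was 0.26, the same as over the 43 genes. At an unadjusted p under 0.05, 3 were higher in STZ, namely Ddx60, a helicase that aids RNA sensing (0.81 ± 0.326), Lgals9, a galectin (0.63 ± 0.248), and Ly6e, a surface protein that affects viral entry (0.74 ± 0.259). One gene, Tor3a, was lower (-0.15 ± 0.0644), and the most abundant, Lgals3bp at 90.6 FPKM, had 0.10. Among 13 other immunity GTPases the median was 0.35, and 3 were higher, namely Gbp9 (1.01 ± 0.403), Ifi47 (0.82 ± 0.331) and F830016B08Rik (1.15 ± 0.332), while the most abundant, Tgtp1 at 4.44 FPKM, had -0.12. These shares, 6.38% and 23.1% higher in STZ, compare with 5.63% of all genes. In DESeq2, 7 of the 47 and 2 of the 13 were higher at an unadjusted p under 0.05 (14.9% and 15.4%, against 5.53%), and 39 of the 47 and 12 of the 13 had a log2 fold change above 0 in edgeR (83% and 92.3%, against 51.9%). STZ replicates 1 and 2 both lay above every vehicle sample in 20 of the 47 genes and in 7 of the 13 GTPases, against 17.2% of all genes.

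Markers of other cells also differed between the samples. The summed FPKM of 12 endothelial markers was 33.3, 49.0 and 120 in vehicle replicates 1 to 3 and 231, 174 and 124 in STZ replicates 1 to 3. Of these, 12 of 12 had a log2 fold change above 0 (against 51.9% of all genes). In edgeR 10 were higher at an unadjusted p under 0.05 (against 5.63% of all genes). In DESeq2 9 were higher at that level (against 5.53%) and 1 was called higher. The sum of 6 neutrophil markers was 135, 171 and 926 in vehicle and 1290, 1320 and 599 in STZ. Of these, 6 of 6 had a log2 fold change above 0, with 1 at an unadjusted p under 0.05 in edgeR and 0 in DESeq2. Vehicle replicate 1 was the lowest and STZ replicates 1 and 2 were the highest for both lists, as for the 35 antiviral genes and the 8 GTPases. STZ replicate 3 was the lowest STZ sample for all 12 endothelial and all 6 neutrophil markers (against 37.8% of all genes). The sum of 8 pericyte and smooth muscle markers was 36.2, 44.4 and 57.2 in vehicle and 76.2, 65.1 and 55.8 in STZ, with 4 of 8 higher at an unadjusted p under 0.05 in edgeR and 4 called higher by DESeq2. The sum of 4 ependymal markers was 39.0, 90.9 and 144 in vehicle and 202, 159 and 121 in STZ, with 0 of 4 at an unadjusted p under 0.05 in edgeR. In these lists too, vehicle replicate 1 was the lowest sample and STZ replicates 1 and 2 were the highest.

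The remaining sums did not have their highest values in STZ replicates 1 and 2 and their lowest in vehicle replicate 1. The sum of 10 microglial markers was 504, 358 and 374 in vehicle and 397, 501 and 361 in STZ, and 0 of 10 had an unadjusted p under 0.05. The sum of 6 border macrophage markers was 11.8 to 21.6 in vehicle and 9.90 to 22.2 in STZ, with 3 of 6 lower at an unadjusted p under 0.05 and 1 called lower by DESeq2. The sum of the T and NK cell markers was 10.6 to 15.4 in vehicle and 11.3 to 15.3 in STZ, with 1 of 6 measured in every sample lower at that level, and that of the oligodendrocyte markers 329 to 804 and 426 to 1080. The neuronal sum was 19.5 to 38.5 in vehicle and 29.7 to 42.6 in STZ, and the erythroid sum 6.86 to 22.6 and 15.3 to 28.8. No marker of any list was at 0 in all 6 samples. Fewer cells of a type and less RNA per cell cannot be told apart in these bulk samples, and the part of the other cell types in the levels of the interferon-stimulated genes was not tested.

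**Figure D5:**
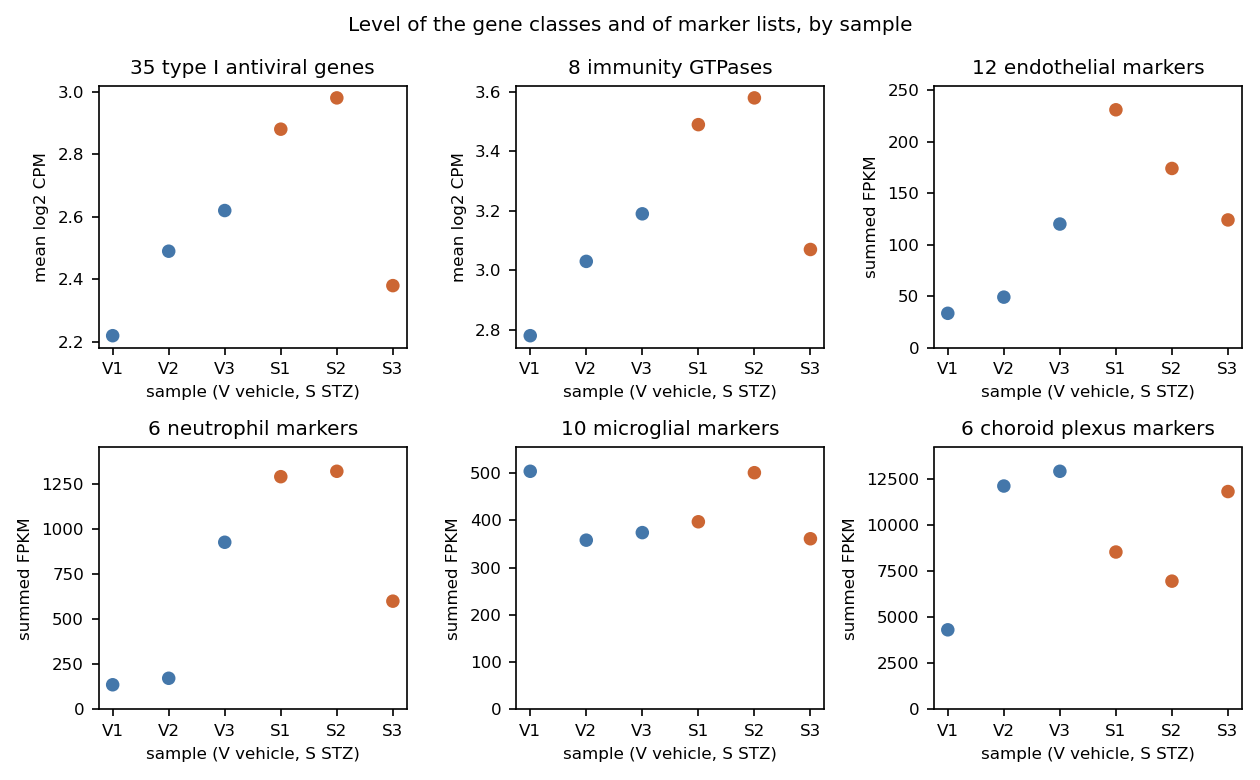
Mean log2 CPM of the 35 antiviral genes and of the 8 GTPases, and summed FPKM of 4 marker lists, in each of the 6 samples (V1 to V3 vehicle, blue; S1 to S3 STZ, orange). The gene classes and the endothelial and neutrophil sums are lowest in V1 and highest in S1 and S2, while the microglial sum is highest in V1 (504) and the choroid plexus sum in V3 (12900).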

How the data were processed

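The analysis covers RNA sequencing of sorted astrocytes from 3 vehicle and 3 STZ samples, each a pool of 3 mice, grouped by their labels. The submitters' processing notes name bcl2fastq 2.20.0, Trimmomatic 0.38, HISAT2 2.1.0, SAMtools 1.9 and StringTie 2.1.3b, and the genome build mm10. The authors deposited read counts per gene (whole numbers, not normalized), FPKM values scaled to transcript length and depth, and TPM values. Whether counting used strand is not given in the sources used here. The removal of outlier genes named in the study's methods was not repeated here.

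The 43 genes, the pathway and marker lists and the tests were chosen with earlier results of these data known. Named in full are genes with an unadjusted edgeR p under 0.05 and the most abundant gene of each role or list; Ifi35, Eif2ak2, Oas3, Cmpk2, Ifnb1 and Ifng and the interferon receptor chains were singled out after their values were seen. Counts of the 22337 genes with at least 1 read in every sample entered a two-sided quasi-likelihood test of STZ against vehicle without covariates (edgeR 4.0.16, R 4.3.3) after TMM scaling, with Benjamini-Hochberg adjustment. A called gene has an adjusted p below 0.05 and differs by more than 1.5-fold. Errors of log2 fold changes are standard errors, those of levels are SD, and n = 3 per group. The samples are separate pools, so p-values measure the spread between pools.

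Alternatives were DESeq2 1.42.0, its size factors in edgeR, no low-count filter, filterByExpr, a robust fit, a replicate block, limma 3.58.1 on log2(TPM + 1) and log2(TPM + 0.1), and leaving out each sample. On simulated data with 200 of 21897 genes changed 2-fold, edgeR called 117 of them and 7 unchanged genes, and DESeq2 called 163 and 36. The changed genes were drawn from those with a mean above 1 CPM. Genes varied independently, with the spread that edgeR estimated, so these rates need not hold for scarcer genes or for genes that vary together. Promoter windows and gene positions are from RefSeq (GRCm38.p6), coding identity from global alignments of GENCODE M21 transcripts. Tables were made with Python 3.11.15, pandas 2.3.3 and numpy 2.4.6.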

Additional observations from a re-analysis of the deposited data

How the results depend on the processing

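The number of the 43 genes called was 0 in edgeR and in every alternative except DESeq2, which called 5, and all genes called numbered 5 in edgeR, 234 in DESeq2, 10 with the robust fit, 0 with limma on log2(TPM + 1), 0 with limma on log2(TPM + 0.1), and 0 to 1 without each sample in turn. The number at an unadjusted p under 0.05 was 9, and 6 to 16 without each sample in turn, the highest without STZ replicate 3. The median log2 fold change stayed between 0.16 and 0.38 for the antiviral genes and between 0.18 and 0.33 for the GTPases over all 14 alternatives. DESeq2 put Ifit1 (0.93), Isg15 (1.51), Rsad2 (0.70), Ifi44 (1.53) and Iigp1 (1.29, log2 fold changes) past the threshold that edgeR did not. Of the 43 log2 fold changes, 36 kept their sign to 2 decimals in all 14 alternatives. Leaving out single samples turned 7 uncalled genes, whose log2 fold changes then ranged from -0.19 to 0.38 for Bst2, -0.19 to 0.14 for Cmpk2, -0.43 to 0.05 for Ifi27, -0.07 to 0.24 for Irgm2, -0.31 to 0.10 for Oas2, -0.02 to 0.21 for Parp9 and -0.04 to 0.24 for Gbp3. The causes were not tested.

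With the replicate number of the sample titles as a block, 0 of the 43 genes and 0 of all genes were called, and 8 of the 43 had an unadjusted p under 0.05, 7 higher and 1 lower in STZ (against 3.95% and 4.07% of all genes). Same-numbered samples did not deviate together (correlations of deviations -0.101, -0.162 and -0.184). The numbers thus showed no pairing, but so few samples cannot exclude one. Precision is limited by 3 pools per group, and by counts as low as 6 reads in the least abundant gene.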
